A study of Homo sapiens with 8 samples.

Results

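The CDK inhibitors and the D cyclins were followed in A2058 cells, a human melanoma cell line, after treatment with TGFβ1. The set was defined by gene symbol, as the CIP/KIP inhibitors CDKN1A, CDKN1B and CDKN1C, the INK4 inhibitors CDKN2A, CDKN2B, CDKN2C and CDKN2D, and the cyclins CCND1, CCND2 and CCND3. All array probes annotated with one of these 10 symbols were taken and each probe was kept apart, which gave 17 of the 47315 probes and 9 of the 10 genes. CDKN2C had no named probe and is not analysed here. The CIP/KIP class had 5 probes for 3 genes, the INK4 class 8 probes for 3 of its 4 genes and the D cyclins 4 probes for 3 genes.

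The 8 arrays were Illumina HT-12 arrays of 1 well each, with 4 TGFβ1 wells and 4 control wells. The sample titles call the control wells untreated, and they are called vehicle wells here. The titles of all 8 arrays, the controls included, also name an empty vector. The methods describe transient transfection, with an empty expression plasmid as the negative control for overexpression of the gene CITED1. Whether this plasmid is the vector of these arrays, and when it was introduced, is not given in the sources used here. The methods give 24 h of treatment in serum-free medium at 5 or 10 ng/ml TGFβ1, and which of these doses the arrays received is not given in the sources used here. The wells came from 1 line at 1 passage, plated on the same day, so p-values measure the spread between wells of a single culture.

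The deposited values are log2 values that were centred by gene and by sample, so 0 is a probe's mean over the 8 arrays. With 4 wells a group, the mean of one group is then the negative of the other, and a value says how far a well lay from the common mean, not how abundant the transcript was. No level, background or detection value was kept, so the melanoma identity of the cells could not be checked by the level of its markers, and no dim probe could be left out. The arrays' medians lay between −0.00504 and −0.00147 and their SDs between 0.120 and 0.160. No array stood apart as a repeat of another, since the closest pair differed by a median of 0.108 per probe. Among markers of other cell types, 0 of 6 fibroblast genes and 0 of 4 leukocyte genes passed the test (limma on gene means, adjusted p under 0.05), and 1 of 4 keratinocyte genes did (KRT10, log2 change 0.38). Over all 20045 genes, 3.03% were called higher and 2.67% lower, and at an unadjusted p under 0.05 the shares were 7.6% higher and 8.04% lower. At that unadjusted threshold the fibroblast genes gave 1 higher and 1 lower, the leukocyte genes 0 and the keratinocyte genes 1 higher and 0 lower. Of 7 measured melanocyte lineage genes, 0 were higher and 3 were lower (MITF −0.39, SOX10 −0.35 and TYRP1 −0.80), with 0 higher and 5 lower at the unadjusted threshold, and the part of these shifts in the results for the cell cycle genes was not tested. In RNA from a whole well, fewer cells with a transcript and less of it per cell cannot be told apart.

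D cyclins bind CDK4 and CDK6 and start the phosphorylation of RB, which frees E2F factors to switch on the genes of DNA replication. INK4 proteins bind CDK4 and CDK6 and keep cyclin D off them, whereas CIP/KIP proteins bind whole cyclin-CDK complexes and mainly block CDK2. In epithelial cells, induction of CDKN2B/p15 and CDKN1A/p21 and loss of MYC are classical steps of growth arrest by TGFβ. In melanocytes, CDKN2A/p16 is best known as a melanoma susceptibility gene, and melanoma cells often resist this arrest.

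The promoters of the genes whose probes changed are shown first, with CDKN2A, the neighbour of CDKN2B on chromosome 9, whose probes did not pass. Each is the 250 bases before a RefSeq transcription start (GRCh38.p14, written 5′ to 3′ on the gene's strand), and capitals mark matches on either strand to the GC box GGGCGG, to which SP1 binds, to the SMAD box CAGAC, or to the E-box CACGTG, to which MYC binds. CDKN1A lies at chr6:36678464-36678713 (+), CDKN2B at chr9:22009306-22009555 (−), the CDKN2A start of p16 at chr9:21974858-21975107 (−), and a CCND3 start at chr6:41941809-41942058 (−).
CDKN1A: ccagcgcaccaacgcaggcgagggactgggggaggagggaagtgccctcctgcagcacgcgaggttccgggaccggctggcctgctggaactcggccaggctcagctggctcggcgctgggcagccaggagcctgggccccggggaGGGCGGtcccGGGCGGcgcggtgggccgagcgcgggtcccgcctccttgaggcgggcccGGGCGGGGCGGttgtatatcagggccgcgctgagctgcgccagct
CDKN2B: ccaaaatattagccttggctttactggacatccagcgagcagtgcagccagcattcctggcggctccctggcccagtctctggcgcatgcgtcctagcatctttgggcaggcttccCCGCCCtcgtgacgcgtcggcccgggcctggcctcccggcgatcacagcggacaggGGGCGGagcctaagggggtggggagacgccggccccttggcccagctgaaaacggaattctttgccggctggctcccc
CDKN2A: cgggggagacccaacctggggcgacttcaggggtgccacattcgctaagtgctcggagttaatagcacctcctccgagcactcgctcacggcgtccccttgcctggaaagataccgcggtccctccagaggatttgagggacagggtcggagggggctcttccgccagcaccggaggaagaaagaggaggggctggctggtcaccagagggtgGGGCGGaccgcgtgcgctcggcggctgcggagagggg
CCND3: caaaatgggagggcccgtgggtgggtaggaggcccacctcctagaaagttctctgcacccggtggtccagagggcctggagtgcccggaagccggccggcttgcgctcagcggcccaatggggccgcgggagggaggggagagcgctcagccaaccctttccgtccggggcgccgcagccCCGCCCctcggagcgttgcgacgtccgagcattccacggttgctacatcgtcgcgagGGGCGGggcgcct

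The CDKN1A window held 4 matches to the GC box, with first bases at −104, −94, −45 and −40 from the start, and the last pair overlap. The CDKN2B window held 2, at −134 and −78, the CDKN2A window 1, at −37, and the CCND3 window 2, at −70 and −13. None of these 4 windows held CAGAC or CACGTG on either strand. Over all 35116 RefSeq promoter windows of the same length, 42.6% held the GC box, 38.0% the SMAD box and 6.34% the E-box. Other starts of the same genes differed, so these counts hold for the windows shown. The other CDKN2A window, at chr9:21995325-21995574, held no GC box and 1 SMAD box at −142, and the other CCND3 windows held 5 GC boxes (chr6:42048689-42048938) and none (chr6:41939206-41939455). Their GC content, 76.4%, 66.4%, 66.8% and 71.2% in the order printed, lay above the median of 58% over all windows. Of the 10 genes, 7 had entries in the promoter table, and CCND1, CCND2 and CDKN1C were not matched.

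TGFβ1 raised 3 of the 17 probes, 1 each of CDKN1A, CDKN2B and CCND1, and lowered 1, that of CCND3 (limma, Benjamini-Hochberg adjusted p under 0.05 over all 47315 probes). Across the whole array 1.8% of probes were called higher and 1.53% lower by the same rule. The groups did not overlap for the same 4 probes, 3 higher and 1 lower, where 3.64% of all probes lay wholly higher and 3.62% wholly lower under TGFβ1. The other 13 probes changed by between −0.22 and 0.41, with adjusted p from 0.0529 to 0.974, and 9 of them by less than 0.1 in either direction. The median change of the 17 probes was −0.02, beside −0.0018 over all probes. Their pooled SD within groups ran from 0.0544 to 0.220, around the array's median of 0.116.

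**Figure D1:**
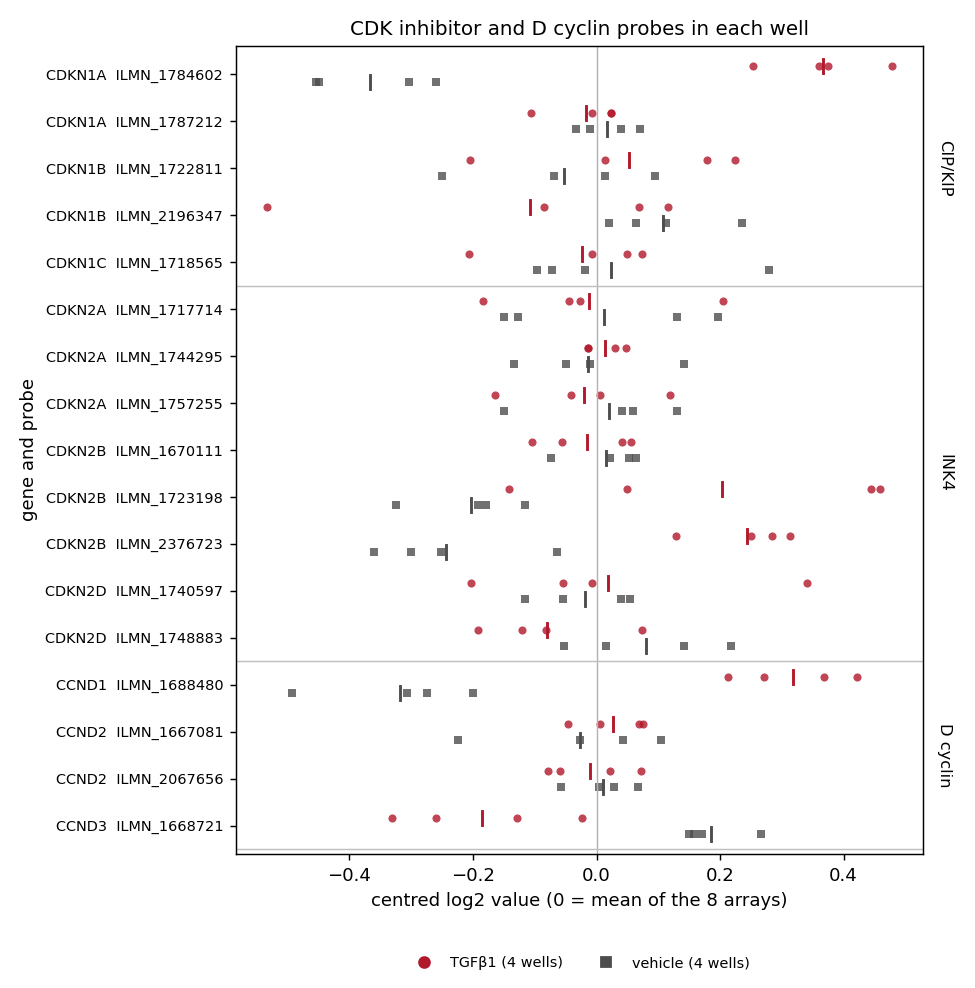
Centred log2 value (x axis, 0 is the mean of the 8 arrays) of each of the 17 probes (y axis, gene and probe), with 1 point per well and a bar at the group mean, TGFβ1 in red above vehicle in grey. The groups stand apart for CDKN1A ILMN_1784602, CDKN2B ILMN_2376723, CCND1 ILMN_1688480 and CCND3 ILMN_1668721, and overlap for the other 13 probes.

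CDKN1A/P21, an inhibitor of cyclin-CDK complexes and a target of SMAD proteins, had the largest change of the set, on 1 of its 2 probes. This is a change of RNA, and its level is unknown. By Western blot the paper found no detectable CDKN1A/P21 protein in A2058 cells. The probe ILMN_1784602 read 0.375, 0.479, 0.253 and 0.360 in the TGFβ1 wells and −0.259, −0.450, −0.304 and −0.455 in the vehicle wells. Every TGFβ1 well lay above every vehicle well, with a gap wider than the range of either group. The change was 0.73 (SE 0.08, 95% interval 0.57 to 0.90), or 1.66-fold, with an adjusted p of 4.5e-06 in limma, and 0.566% of all probes changed by at least as much.

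The second CDKN1A probe, ILMN_1787212, is annotated to another transcript variant that encodes the same protein. It read −0.0074, 0.0232, 0.0234 and −0.105 in the TGFβ1 wells and −0.0327, 0.0698, 0.0404 and −0.0112 in the vehicle wells, and the groups overlapped. Its change was −0.03 (SE 0.07, 95% interval −0.19 to 0.12, adjusted p = 0.944 in limma). Set against each other within each array, the first probe gained 0.77 over the second (SE 0.08), with a two-sided exact permutation p of 0.0286 and 0.0952 after adjustment over 10 such pairs of probes. No labelling of 8 wells gives a smaller p than 0.0286. The mean of both probes was 0.35 higher (SE 0.06, adjusted p = 0.0021 over 20045 genes).

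CDKN1B/P27 and CDKN1C/P57, the other CIP/KIP inhibitors, did not pass the test on any probe. The CDKN1B probe ILMN_2196347 read 0.116, −0.0851, 0.0690 and −0.533 in the TGFβ1 wells, against 0.235, 0.0644, 0.0207 and 0.113 in the vehicle wells. TGFβ1 replicate 4 was the low well here, and the change was −0.22 (95% interval −0.45 to 0.02, adjusted p = 0.498) with all wells and −0.08 without it. The other CDKN1B probe, ILMN_1722811, read 0.224, 0.179, 0.0132 and −0.206 in the TGFβ1 wells and −0.250, 0.0130, 0.0946 and −0.0680 in the vehicle wells, a change of 0.11 (95% interval −0.10 to 0.31, adjusted p = 0.808). Replicate 4 was again the lowest TGFβ1 well, and the probes of CDKN1B differ in the sign of their change. CDKN1C, on ILMN_1718565, changed by −0.05 (95% interval −0.24 to 0.15, adjusted p = 0.938), with wells from −0.207 to 0.0734 under TGFβ1 and from −0.0963 to 0.279 under vehicle.

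Within the class, the gene mean of CDKN1A gained 0.41 (SE 0.11) over that of CDKN1B and 0.40 (SE 0.09) over that of CDKN1C, each with an exact permutation p of 0.0286 and 0.0429 after adjustment over 9 pairs of genes. CDKN1B and CDKN1C differed by −0.01 (SE 0.15, exact permutation p = 0.886), and an SE of that size leaves room for a difference in either direction.

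CDKN2B/P15 was the INK4 gene that changed, and its 3 probes read differently. The probe ILMN_2376723 read 0.128, 0.285, 0.314 and 0.249 in the TGFβ1 wells and −0.360, −0.301, −0.252 and −0.0632 in the vehicle wells. All TGFβ1 wells lay above all vehicle wells, the closest pair being TGFβ1 replicate 1 and vehicle replicate 4. The change was 0.49 (SE 0.08, 95% interval 0.32 to 0.66), or 1.40-fold, with an adjusted p of 8.3e-04 in limma.

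The probe ILMN_1723198, annotated to the variant that encodes full-length p15, read 0.0486, 0.444, 0.459 and −0.141 in the TGFβ1 wells and −0.325, −0.115, −0.178 and −0.191 in the vehicle wells. TGFβ1 replicates 2 and 3 were high, and replicate 4 lay within the range of the vehicle wells. Its change of 0.41 (SE 0.11, 95% interval 0.17 to 0.64) missed the threshold with an adjusted p of 0.0529. It passed without TGFβ1 replicate 4 (0.52, adjusted p = 0.0023) and without TGFβ1 replicate 1 (0.46, adjusted p = 0.0477), while without TGFβ1 replicate 2 or 3 it was 0.32 in each case, with adjusted p of 0.218 and 0.203. Leaving out a vehicle well gave adjusted p from 0.0852 to 0.163.

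The third CDKN2B probe, ILMN_1670111, is annotated to the same shorter variant as ILMN_2376723. It read 0.0417, 0.0552, −0.0559 and −0.104 in the TGFβ1 wells and 0.0519, −0.0743, 0.0215 and 0.0636 in the vehicle wells, a change of −0.03 (95% interval −0.19 to 0.13, adjusted p = 0.95). It differed from ILMN_1723198 by −0.44 (SE 0.15) and from ILMN_2376723 by −0.52 (SE 0.09) in its response, each with an exact permutation p of 0.0286 and 0.0952 after adjustment over the 10 pairs. Averaged over the 3 probes, CDKN2B was 0.29 higher (SE 0.07, adjusted p = 0.0281 over all genes), with wells from 0.0014 to 0.261 under TGFβ1 and from −0.211 to −0.0637 under vehicle. This gene-level call was lost without TGFβ1 replicate 2 or 3 and without vehicle replicate 1, 2 or 3 (changes of 0.25, 0.26, 0.26, 0.28 and 0.29), with adjusted p from 0.0626 to 0.0975.

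CDKN2A, which encodes p16 and, from another first exon, the protein ARF, did not pass on any of its 3 probes. The p16 probe ILMN_1717714 read −0.0266, 0.205, −0.0444 and −0.184 in the TGFβ1 wells and −0.126, −0.150, 0.197 and 0.130 in the vehicle wells. The values of both groups lay on either side of 0, and the change was −0.02 (95% interval −0.23 to 0.18, adjusted p = 0.974). The ARF probe ILMN_1744295 changed by 0.03 (−0.14 to 0.19, adjusted p = 0.964) and ILMN_1757255, annotated to a further variant, by −0.04 (−0.22 to 0.14, adjusted p = 0.941).

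CDKN2D/P19, an INK4 protein that binds CDK4 and CDK6 like p16, changed by −0.16 on ILMN_1748883 (95% interval −0.34 to 0.01, adjusted p = 0.511) and by 0.04 on ILMN_1740597 (−0.17 to 0.24, adjusted p = 0.955). On the first of these probes the wells read −0.0823, −0.192, −0.121 and 0.0741 under TGFβ1 and 0.142, 0.0148, 0.218 and −0.0525 under vehicle. Of the TGFβ1 wells 3 lay below 0, and of the vehicle wells 3 lay above it.

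CDKN2A and CDKN2B lie next to each other, yet their responses differed by −0.30 (SE 0.06, exact permutation p = 0.0286, adjusted p = 0.0429), with CDKN2A the lower. CDKN2B differed from CDKN2D by 0.35 (SE 0.11, exact permutation p = 0.0571, adjusted p = 0.0735), and CDKN2A from CDKN2D by 0.05 (SE 0.11, exact permutation p = 0.657, adjusted p = 0.739). Of 5 further transcripts of the 9p21 neighbourhood, 0 passed the test in limma, beside 3.03% of all genes higher and 2.67% lower. At an unadjusted p under 0.05, 1 was lower, beside 8.04% of all genes. The antisense transcript CDKN2B-AS1 changed by 0.07 (adjusted p = 0.734) and the metabolic enzyme gene MTAP by −0.17 (adjusted p = 0.259), while KLHL9, part of a ubiquitin ligase, had groups that did not overlap but changed by −0.11 (adjusted p = 0.382).

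**Figure D2:**
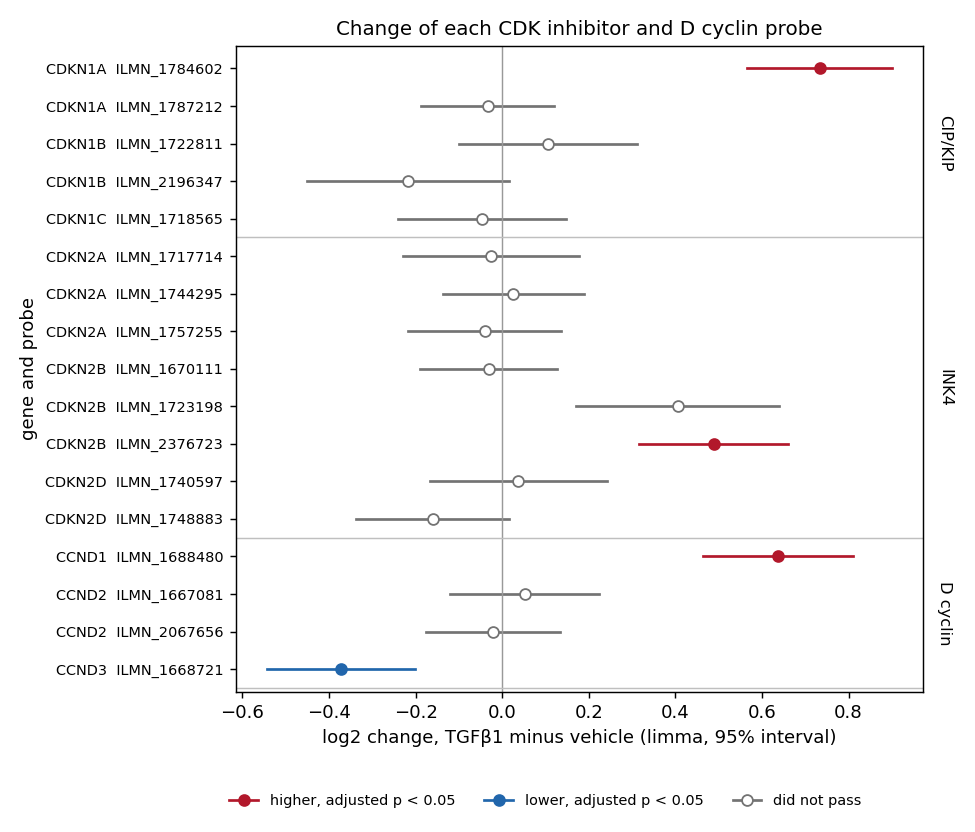
Log2 change (x axis, TGFβ1 minus vehicle, 4 wells each) of the 17 probes (y axis) with its 95% interval from limma, where red marks probes called higher, blue lower and open grey points those that did not pass. CDKN1A ILMN_1784602 at 0.73 and CCND1 ILMN_1688480 at 0.64 lie highest, CCND3 ILMN_1668721 at −0.37 lies lowest, and probes of CDKN1A and of CDKN2B fall both near 0 and above it.

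Of the 3 D cyclins, 1 rose, 1 fell and 1 did not pass. CCND1, the D cyclin best known as an oncogene and a target of MAPK and β-catenin signals, rose. Its single probe, ILMN_1688480, read 0.270, 0.213, 0.368 and 0.422 in the TGFβ1 wells and −0.307, −0.274, −0.493 and −0.199 in the vehicle wells. No TGFβ1 well came near a vehicle well, and the change was 0.64 (SE 0.08, 95% interval 0.46 to 0.81), or 1.56-fold, with an adjusted p of 4.3e-05 in limma.

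CCND3, a D cyclin with the same CDK partners, fell. Its probe, ILMN_1668721, read −0.260, −0.129, −0.331 and −0.0233 in the TGFβ1 wells and 0.158, 0.150, 0.266 and 0.170 in the vehicle wells. The vehicle wells lay close together (SD 0.0540) and the TGFβ1 wells were more spread (SD 0.137), with all 4 below the vehicle wells. The change was −0.37 (SE 0.08, 95% interval −0.54 to −0.20), or 0.773 times the vehicle level, with an adjusted p of 0.0101 in limma. SAM, the test of the methods, coded anew here, did not call it.

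CCND2, the third D cyclin, did not pass on either probe. ILMN_1667081 changed by 0.05 (95% interval −0.12 to 0.22, adjusted p = 0.915) and ILMN_2067656 by −0.02 (−0.18 to 0.14, adjusted p = 0.971). All wells of both probes lay between −0.0781 and 0.0755 under TGFβ1 and between −0.225 and 0.105 under vehicle. The response of CCND1 exceeded that of CCND2 by 0.62 (SE 0.10) and that of CCND3 by 1.01 (SE 0.12), and CCND2 exceeded CCND3 by 0.39 (SE 0.10). Each of these had an exact permutation p of 0.0286 and 0.0429 after adjustment over the 9 pairs, of which 6 reached this value. As 0.0286 is the smallest p possible here, the adjusted value turns on how many pairs reached it. It does not rank the differences by size, and pairs of a class share genes.

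By gene mean, 3 of the 9 genes were higher and 1 was lower, beside 3.03% of 20045 genes higher and 2.67% lower. Each class thus held at least 1 gene with a called probe and at least 1 whose probes all missed the threshold.

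For the probe with the largest change in each class, the genes with the most similar pattern over the 8 arrays were found by Pearson's r, as a description, since all points share the same arrays and 2 groups. CDKN1A ILMN_1784602 was most like CYTH1 and NUAK1 (r = 0.994 each) and SCG5 (r = 0.993), which rose by 1.12, 1.21 and 0.99. CDKN2B ILMN_2376723 was most like YIPF6 and PLAUR (r = 0.981 each) and ANGPT1 (r = 0.976), with changes of 0.35, 0.72 and 0.84. CCND1 was most like LTBP3 (r = 0.989), PLEKHA1 (r = 0.988) and CTNNB1 (r = 0.986), with changes of 0.56, 0.38 and 0.63. Of these, PLAUR is the urokinase receptor, ANGPT1 a ligand of the TIE2 receptor, LTBP3 a protein that binds latent TGFβ and CTNNB1 β-catenin. An r above 0.95 was shared by 136, 63 and 119 of 29946 probes for CDKN1A, CDKN2B and CCND1, so these neighbours are a few among many. For CTNNB1 the likeness holds for 1 of 7 probes, with 2 of the 7 called higher and a gene mean change of 0.20 that did not pass (adjusted p = 0.092).

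Among the kinases that these proteins control, both partners of the D cyclins fell. Of 18 CDKs, cyclins and their regulators, 1 was higher and 3 were lower, beside 3.03% of all genes higher and 2.67% lower, with changes from −0.48 to 0.61 and a median of 0.04 beside −0.0013 over all genes. CDK4 read −0.0915, −0.164, −0.251 and −0.230 in the TGFβ1 wells and 0.149, 0.277, 0.329 and −0.0192 in the vehicle wells (change −0.37, SE 0.08, adjusted p = 0.0116). CDK6 read −0.297, −0.224, −0.342 and −0.0957 in the TGFβ1 wells and 0.167, 0.147, 0.332 and 0.314 in the vehicle wells (change −0.48, SE 0.07, adjusted p = 9.0e-04). Neither gene's groups overlapped, though TGFβ1 replicate 1 and vehicle replicate 4 came close for CDK4. CDC25B, a phosphatase that activates CDKs, fell by 0.45 (adjusted p = 0.0051), and WEE1, the kinase that inhibits CDK1, rose by 0.61 (adjusted p = 0.0043). CDK2 changed by 0.05 (adjusted p = 0.863) and CCNE1, its cyclin partner, by 0.03 (adjusted p = 0.908).

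Downstream of these kinases, among 17 RB and E2F proteins 1 was higher and 0 were lower in limma (median 0.01). Over all genes the shares were 3.03% higher and 2.67% lower. At an unadjusted p under 0.05, 2 were higher and 1 lower, where all genes gave 7.6% higher and 8.04% lower. The gene that passed was the repressor E2F7, at 0.28 (adjusted p = 0.0326 over genes, 0.0653 over probes). RB1 changed by 0.01 (adjusted p = 0.981) and E2F1 by −0.18 (adjusted p = 0.711). Among 21 E2F targets of S phase 1 was higher and 1 was lower (median −0.08), beside 3.03% and 2.67% of all genes. At the unadjusted threshold 1 was higher and 6 were lower, beside 7.6% and 8.04% of all genes. Both of those that passed at the adjusted threshold encode subunits of the replicative helicase. They were MCM4 at 0.32 (adjusted p = 0.0039, on 1 of its 2 probes) and MCM3 at −0.24 (adjusted p = 0.0328, with neither probe called alone). PCNA, the polymerase clamp, changed by 0.02 (adjusted p = 0.948).

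Among 23 measured factors that control transcription of the inhibitors and D cyclins, 2 were higher and 5 were lower, beside 3.03% of all genes higher and 2.67% lower. At the unadjusted threshold 6 were higher and 5 lower, beside 7.6% and 8.04% of all genes. The median of 0.05 stands against the direction of most of the calls at the adjusted threshold. MYC, which represses CDKN1A and CDKN2B through the partner ZBTB17, had the largest fall. Its gene mean read −0.477, −0.395, −0.417 and −0.446 in the TGFβ1 wells and 0.293, 0.621, 0.407 and 0.415 in the vehicle wells, a change of −0.87 (SE 0.07, adjusted p = 3.6e-06), and both of its probes were called. ZBTB17 itself changed by −0.15 (adjusted p = 0.338). The zinc finger factor KLF6, an activator of CDKN1A, fell by 0.56 (adjusted p = 2.2e-04) and SMAD3, a transducer of TGFβ signals, by 0.43 (adjusted p = 0.0070), while SMAD2 and SMAD4 changed by 0.06 and 0.15 (adjusted p = 0.776 and 0.495). ETS1 and MITF were the other genes that fell, ETS1 on 1 of its 2 probes and MITF on 1 of its 3 probes. JUN, the AP-1 subunit that drives CCND1, rose by 0.48 (adjusted p = 6.55e-04).

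ID1, an inhibitor of helix-loop-helix factors that lowers CDKN2A, rose on 1 of its 2 probes. Its gene mean read 0.242, 0.449, 0.456 and 0.456 in the TGFβ1 wells and −0.390, −0.377, −0.468 and −0.367 in the vehicle wells (change 0.80, SE 0.07, adjusted p = 3.6e-06). The probe ILMN_1664861 changed by 1.55 and ILMN_1665832 by 0.05 (adjusted p = 0.922).

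None of 18 genes that degrade or stabilise the inhibitors and D cyclins passed at the adjusted threshold in limma (median −0.04). Over all genes 3.03% were higher and 2.67% lower. At an unadjusted p under 0.05, 2 were higher and 3 lower, beside 7.6% and 8.04% of all genes. SKP2, the F-box protein that recognises p27, changed by −0.06 (adjusted p = 0.793).

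**Figure D3:**
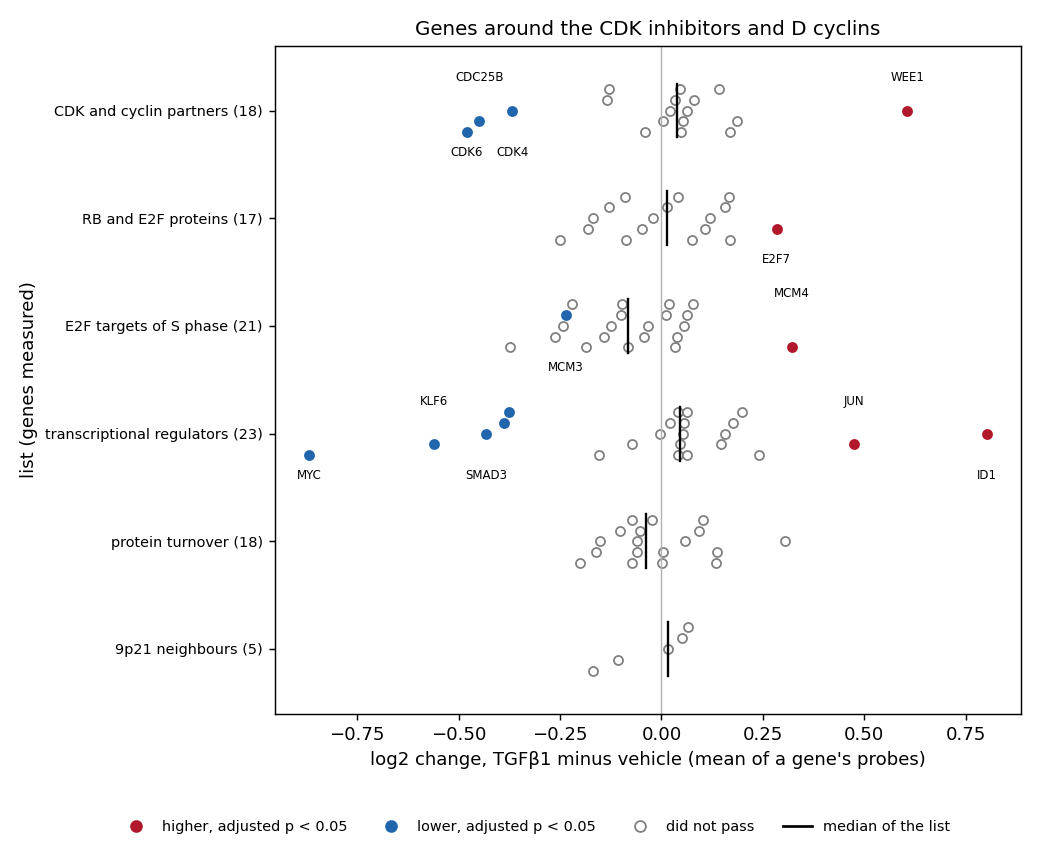
Log2 change of each measured gene (x axis, TGFβ1 minus vehicle, mean of the gene's probes, 4 wells each) in 6 lists around the inhibitors and D cyclins (y axis, with the number of genes), red and blue for genes called higher and lower in limma, open grey for the rest, and a black line at each list's median. The medians lie between −0.08 and 0.05, and the named genes at the ends are MYC at −0.87 and ID1 at 0.80.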

How the data were processed

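Each of 8 Illumina HT-12 arrays measured the RNA of 1 well of A2058 cells. Per the methods, the deposited log2 values had been quantile normalised and freed of control probes in BASE and centred by gene and by sample in MeV by the authors, and the versions are not given in the sources used here. The log base is known only from the methods. Checked on the values, a probe's 8 values averaged 0 to within 1.6e-07. The platform annotation named 1 gene for 30105 probes, several for 8, which gave no gene results, and none for 17202.

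Groups came from the sample titles, 4 TGFβ1 and 4 untreated, the latter called vehicle here. Each of 47315 probes was tested in R 4.3.3 by limma 3.58.1 (lmFit, eBayes), without covariates. Gene values were means of a gene's probes (20045 genes, 13357 with 1 probe). P-values were adjusted by Benjamini-Hochberg over all probes or all genes and called under 0.05, and intervals are 95%. Pairs of genes and of probes were compared by two-sided exact permutation over 70 labellings. The precision is limited by 4 arrays a group, and the values hold no depth. A simulation with 200 changed probes was used to test the scripts.

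The alternatives were SAM (delta 0.9, a median of 9 false positives), quantile normalisation again, a common median and MAD, array weights, robust eBayes, an adjusted p under 0.01, adjustment over named probes, the probe with the largest SD, the replicate block and leaving out each array. The genes, lists and tests were chosen with earlier results of these data known. Named were all probes of the set, up to 3 called genes per direction and list, and the 3 genes most like the leading probe of each class. Other list members given with values (CDK2, CCNE1, RB1, E2F1, PCNA, ZBTB17, SMAD2, SMAD4, SKP2, ETS1, MITF and the 9p21 genes) and markers were added after values were seen. DCT had no named probe. A further gene list and some list members are not reported here. The software was Python 3.11.15 with scipy 1.17.1, numpy 2.4.6, pandas 2.3.3 and matplotlib 3.10.9.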

Additional observations from a re-analysis of the deposited data

Results flagged for a closer look

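Of 58 groups of 4 wells tested for a well far from the others, 3 were marked, about the 1 in 20 that chance gives. None was a group of a CDK inhibitor or D cyclin probe. TGFβ1 replicate 1 read 0.242 for ID1 (gene mean), below the other TGFβ1 wells, with a gap of 0.967 of the group's range. TGFβ1 replicate 2 read −0.338 for KLF6 (0.846 of the range) and TGFβ1 replicate 1 read −0.389 for SMAD3 (0.843 of the range), each below the other TGFβ1 wells. Leaving out any 1 array kept the calls of all 3 genes.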

How the results depend on the processing

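No change turned direction past the threshold under the alternatives run. The probes CDKN1A ILMN_1784602, CDKN2B ILMN_2376723 and CCND1 ILMN_1688480 kept their calls in all 16 alternatives, with changes of 0.70 to 0.77, 0.45 to 0.55 and 0.58 to 0.68. CCND3 lost its call with SAM and at an adjusted p under 0.01, so that 0 probes of the set were then lower, and its adjusted p ran from 0.0030 to 0.0475 without 1 array. With SAM 598 of all probes were higher and 358 lower, and at an adjusted p under 0.01 567 were higher and 392 lower. CDKN2B ILMN_1723198 gained a call after quantile normalisation (adjusted p = 0.0428), a common median and MAD (0.0389), array weights (0.0208), adjustment over named probes (0.0380) and without TGFβ1 replicate 1 (0.0477) or replicate 4. The 6 differences between genes of a class that passed kept their sign in all 9 alternatives run for them. At an adjusted p under 0.01 the lists held 0 RB and E2F proteins higher and 0 S phase targets lower. The gene means of CDK4, CDKN2B, E2F7, MCM3, ETS1 and the lineage marker SOX10 missed that threshold. CDK4 kept its call at 0.05 without any 1 array, with adjusted p from 0.0031 to 0.0434 in limma. With the probe of largest SD 0 RB and E2F proteins were higher.

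No pairing of wells beyond a replicate number is given in the sources used here. Same-numbered wells deviated together by r of −0.016 to 0.026, which cannot show whether wells shared a batch. In the replicate block the set kept 3 of its called probes higher and 1 lower. It gained CDKN2B ILMN_1723198 (adjusted p = 0.0233 in limma). Of all probes, 817 were then higher and 688 lower. The gene means of CDKN2B (adjusted p = 0.0569), E2F7 (0.0712) and MCM3 (0.0800) missed the threshold in this block. Here 0 RB and E2F proteins were higher and 1 protein turnover gene was higher. Without 1 array, 3 to 4 probes of the set were higher and 1 was lower, and 699 to 905 of all probes were higher and 527 to 742 lower. The ranges were 1 to 2 for CDK partners higher, and 0 to 1 for RB and E2F proteins higher and lower, S phase targets lower and protein turnover genes higher. E2F7 lost its call without any 1 array but TGFβ1 replicate 2 or vehicle replicate 3 (changes of 0.25 to 0.29) and MCM3 without any 1 but TGFβ1 replicate 4 or vehicle replicate 1 (−0.25 to −0.21). The cause of these changes was not tested. With centred values the signal over background is unknown, so a probe that did not pass may be one that measured little.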
